A study of Mus musculus with 6 samples.

Results

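Small leucine-rich proteoglycans are secreted matrix proteins built from leucine-rich repeats, most of which carry sugar chains. The members described here are 7 genes, taken by symbol from the 35688 gene rows of the deposited table: Dcn (decorin), Bgn (biglycan), Lum (lumican), Fmod (fibromodulin), Ogn (osteoglycin), Prelp and Podn (podocan). Each symbol had a single row. The members were chosen with earlier results of these data known, though no measured value entered the rule that took their rows. The RNA came from the mouse cell line m1102, labelled as ovarian surface epithelium, the cell layer over the ovary. There were 3 untreated libraries and 3 from cells given 10 ng/mL TGFB1 for 4 days before RNA was collected. Both groups grew in medium with 4% FBS, ITSS and EGF, so the untreated cells were not free of growth factors. All libraries come from a single cell line in culture, and nothing in the labels ties the libraries to separate cultures. The p-values therefore speak only to the spread among these 6 libraries, which may be technical.

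Decorin and biglycan are close relatives that carry chondroitin or dermatan sulfate chains, bind collagen and are known to bind TGFB1. Lumican, fibromodulin and osteoglycin can carry keratan sulfate in some tissues, and the first of these, with fibromodulin and decorin, shape collagen fibrils. PRELP anchors basement membrane to connective tissue, and podocan is a more distant relative. In the ovary these proteins are mostly known from the stroma and the capsule beneath the surface epithelium.

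The 250 bases before the transcription start are shown for Bgn and Ogn because they are a member that rose and a member that fell with TGFB1. The sequences are from RefSeq on GRCm38.p6, whose windows matched 5 of the 7 members; Dcn and Lum did not match. Bgn lies on the plus strand of chromosome X and its window is chrX:73483351-73483600. Ogn lies on the plus strand of chromosome 13 and its window is chr13:49607765-49608014. Capitals mark matches, on either strand, to a GC box (GGGCGG) or a TATA box (TATAAA).
Bgn: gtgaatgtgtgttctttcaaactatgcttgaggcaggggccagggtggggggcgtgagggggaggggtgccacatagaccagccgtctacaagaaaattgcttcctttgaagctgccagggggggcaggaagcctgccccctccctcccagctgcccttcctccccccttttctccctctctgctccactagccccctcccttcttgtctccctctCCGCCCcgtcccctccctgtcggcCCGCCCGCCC
Ogn: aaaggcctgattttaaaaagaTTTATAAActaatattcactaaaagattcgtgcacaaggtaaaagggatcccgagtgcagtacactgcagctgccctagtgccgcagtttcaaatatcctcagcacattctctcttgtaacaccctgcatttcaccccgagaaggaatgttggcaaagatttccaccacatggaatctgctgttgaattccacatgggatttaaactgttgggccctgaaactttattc
The Bgn window held 3 GC box matches, which begin 34, 10 and 6 bases before the start, the last pair overlapping. A GC box match was present in 32.7% of all 32851 windows of the same length. The Ogn window held 2 TATA box matches, which overlap and begin 229 and 227 bases before the start, and 12.4% of all windows held one. Neither window held CAGAC, the core of a SMAD-binding element (42.2% of all windows), or the AP-1 element TGANTCA (6.75%). The Bgn window was 64.4% G or C and the Ogn window 42%, beside a median of 52.4%.

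Of the 7 members, 3 were abundant enough to be tested (mean level 1 TPM or more), and all 3 differed between the groups: Bgn rose, and Dcn and Ogn fell. TPM stands for the deposited abundances, which are scaled for transcript length, so that levels of different genes can be set side by side. The test was limma on log2(TPM + 1) over 12257 genes, and a gene was called at a Benjamini-Hochberg adjusted p under 0.05. Over all tested genes 15.8% were called higher and 14.6% lower, so 30.4% were called in either direction. In 49.8% of tested genes the 2 groups of libraries did not overlap, as was the case for all 3 tested members. These shares are high, so calls for 3 members say little about the family as a set.

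The library TGFB1 replicate 1 stood apart from the other treated libraries. On the first principal component of all tested genes (70.7% of the variance) it scored 46.6, beside 20.2 and 18.1 for replicates 2 and 3. The untreated libraries scored from -29.8 to -27.1, so replicate 1 lay furthest from them. Without it 32.2% of genes were called, 16.5% higher and 15.7% lower. TGFB1 reporter genes were listed with earlier results of these data known, so they are no independent check of the label. Of 9 tested, 7 rose, led by Col1a1, with a log2 fold change of 4.35. Ltbp2 was the 1 that fell (-0.62), and the median was 1.26. Ltbp2 missed the threshold when the filter, or control replicate 2 or 3, was left out. The deposited table holds no read counts, so sequencing depth is unknown and counting error could not be estimated.

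Biglycan was the most abundant member in every library. Bgn spans positions 73483602 to 73495933 of chromosome X, plus strand, in the GENCODE M21 annotation of GRCm38. Without TGFB1 its level was 1721, 2094 and 1853 TPM, and with it 3100, 3484 and 3395 TPM. The lowest treated library was above the highest untreated one. The mean rose from 1889 ± 189 to 3326 ± 201 TPM (SD, n = 3 per group here and below), or 1.76 times the untreated mean (0.82 on the log2 scale, SE 0.0855, limma adjusted p = 0.00127). Among all gene rows it ranked between 46 and 67 by abundance without TGFB1 and between 22 and 24 with it. Of the 313 genes whose mean reached 500 TPM, 52 were called higher, and 13 of those had a larger log2 fold change than Bgn.

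Decorin went the other way. Dcn spans positions 97479609 to 97518143 of chromosome 10, plus strand. It was at 1252, 1475 and 1360 TPM without TGFB1 and at 647, 592 and 609 TPM with it. All treated libraries were below all untreated ones, and the treated libraries lay closer together. The mean fell from 1362 ± 112 to 616 ± 28.0 TPM, so that it was 2.21 times as high without TGFB1 (-1.14 on the log2 scale, SE 0.0735, limma adjusted p = 0.000298). Its rank by abundance went from between 87 and 115 to between 236 and 254, so it stayed an abundant transcript. Of the 113 genes called lower among the 313 most abundant, 6 had a larger fall than Dcn. Among all 1788 genes called lower, 219 did.

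The values of Bgn and Dcn within a library give a ratio that scaling each library by a single factor cannot alter. Bgn TPM over Dcn TPM was 1.37, 1.42 and 1.36 in the untreated libraries and 4.79, 5.88 and 5.57 in the treated ones. The untreated ratios differed little among themselves, and the groups were far apart. The mean ratio was 1.39 ± 0.0296 without and 5.42 ± 0.562 with TGFB1. The log2 ratio was 1.96 higher with TGFB1. Each gene alone already separated the groups, in opposite directions, so the ratio had to separate them too. Its two-sided exact permutation p of 0.1, the smallest that 3 libraries against 3 can give, was therefore fixed and adds no support. Leaving out each library in turn gave differences from 1.90 to 2.05.

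The summed level of Dcn and Bgn was 2973 to 3569 TPM without and 3747 to 4076 TPM with TGFB1. The sum over all 18 genes of the family, the members and 11 relatives, went from 3313 ± 304 to 3990 ± 177 TPM, 1.20 times as high (two-sided exact permutation p = 0.1, again the smallest possible). Biglycan made up 57.0% ± 0.509 of that sum without TGFB1 and 83.3% ± 1.37 with it. Decorin's share was 41.1% ± 0.510 and 15.5% ± 1.42. The family total thus changed less than its makeup. Totals over all genes ran from 1006783 to 1026702 without TGFB1 and from 983434 to 987121 with it. The family sums were not rescaled for this.

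**Figure D1:**
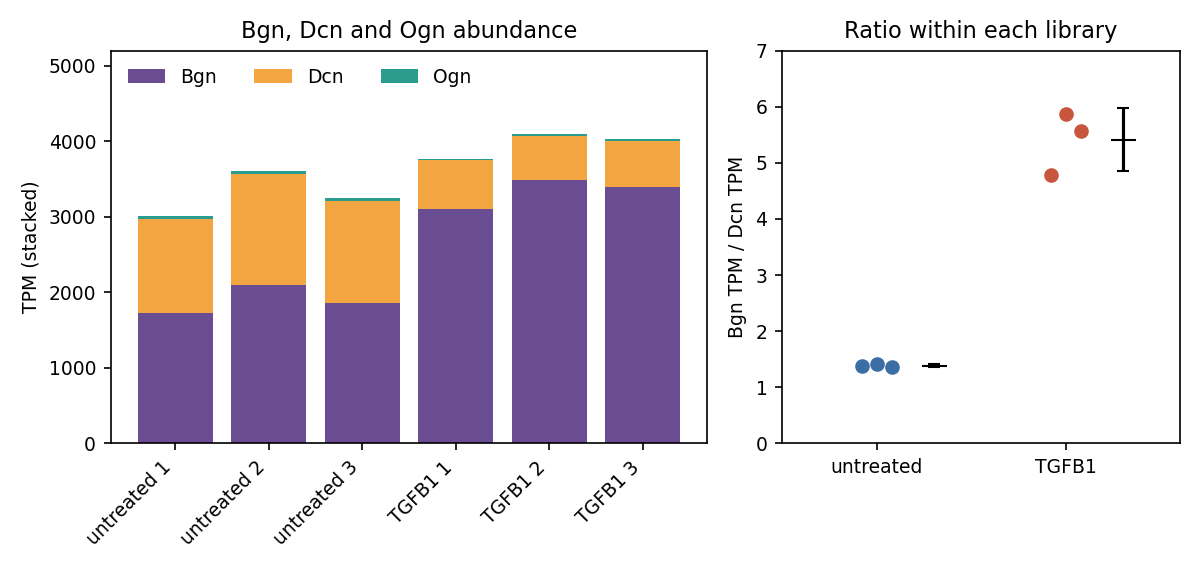
Left, stacked abundance (TPM) of Bgn, Dcn and Ogn in each library; right, Bgn TPM over Dcn TPM, with each point a library and the bar showing mean ± SD of 3. The ratio lies between 1.36 and 1.42 without TGFB1 and between 4.79 and 5.88 with it, and Ogn is a thin band at the top of each column.

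With all libraries included, osteoglycin was lower by a similar amount to decorin but far less abundant, and its replicates agreed less. Ogn spans positions 49608046 to 49624501 of chromosome 13, plus strand. It was at 37.7, 44.0 and 38.0 TPM without TGFB1 and at 13.4, 23.9 and 24.3 TPM with it. TGFB1 replicate 1 was the lowest library, well under the other treated ones, and the groups did not overlap. The mean fell from 39.9 ± 3.58 to 20.5 ± 6.17 TPM (-0.97 on the log2 scale, SE 0.218, limma adjusted p = 0.0177). Without TGFB1 replicate 1 the log2 fold change of Ogn was -0.70 (limma adjusted p = 0.00155), a smaller fall than the -1.18 of Dcn in the same fit. With no filter on low values Ogn missed the threshold (adjusted p = 0.0521), and so it did when control replicate 1, 2 or 3 was left out (0.0529, 0.0635 and 0.0548), while the size of the fall stayed between -1.11 and -0.70 with any library left out.

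The SD of the log2 values of Ogn in the treated libraries was 0.462, beside 0.065 for Dcn and 0.0885 for Bgn and a median of 0.121 over all tested genes. The Dcn to Ogn ratio did not move in a single direction. It was 33.2, 33.5 and 35.8 without TGFB1 and 48.3, 24.8 and 25.0 with it, with TGFB1 replicate 1 above and the others below every untreated library. The log2 ratio differed by -0.14 between the groups (two-sided exact permutation p = 1) and by -0.45 without TGFB1 replicate 1, but by 0.03 and 0.02 without TGFB1 replicate 2 and 3. Ogn lies inside Cenpp, a centromere protein gene on the opposite strand, but none of its exonic bases is shared with a Cenpp exon. Cenpp was at 7.16 ± 0.886 and 6.91 ± 0.488 TPM and was not called (log2 fold change -0.04, adjusted p = 0.806).

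The other 4 members were close to 0 in every library, with no value above 0.273 TPM, and could not be tested under the filter. Lumican, which is abundant in many fibroblasts, was at 0.249, 0.261 and 0.273 TPM without TGFB1 and at 0, 0.027 and 0.105 TPM with it. Podn was at 0.0588, 0.122 and 0.0623 TPM without TGFB1 and was listed at 0 in all 3 treated libraries. For both, the groups did not overlap, as was the case for 12.5% of all genes above 0 but under the filter. When no filter was applied, Lum was called lower (adjusted p = 0.0182) and Podn was not (0.0752), with 5.77% of 22740 genes called lower. Such values are near the lower end of what the table records, and an exact 0 there can be a failed estimate.

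Fmod was at 0.0639, 0.0915 and 0 TPM without TGFB1 and at 0, 0.167 and 0.194 TPM with it. Prelp was at 0.0986, 0.172 and 0.098 TPM and at 0, 0.192 and 0.0969 TPM. In both genes the groups overlapped, and neither was called without the filter (adjusted p = 0.538 and 0.775). Of the exonic bases of Prelp, 350 of 3615 overlap Gm15851, a gene model on the other strand, so its value is uncertain.

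**Figure D2:**
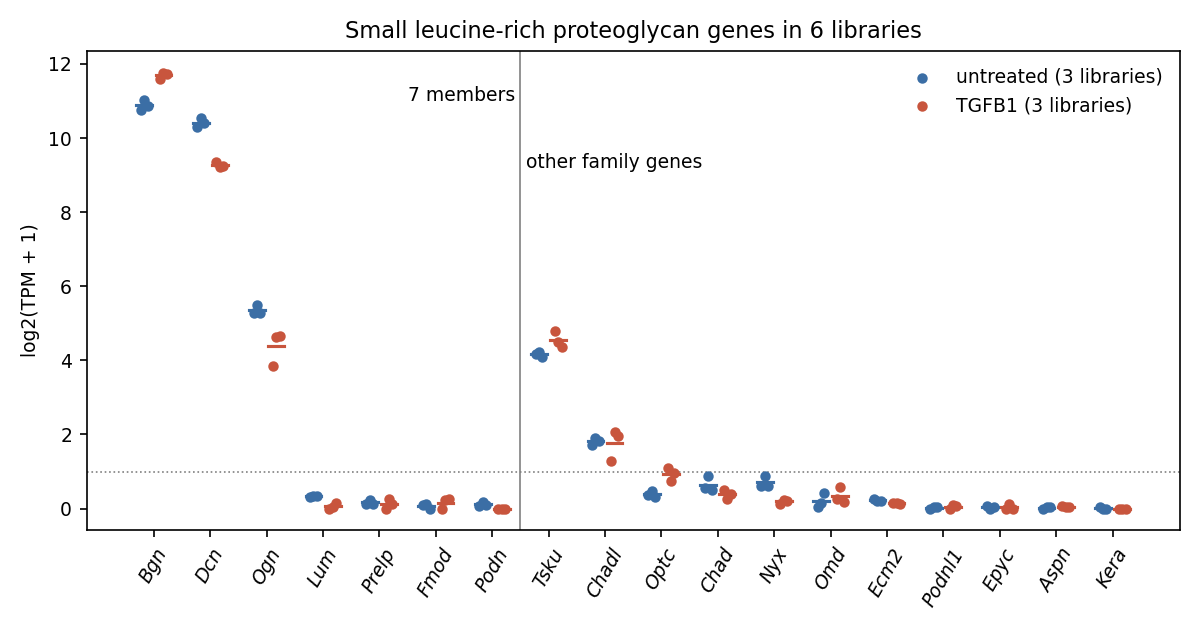
Level, as log2(TPM + 1), of the 7 members and 11 other genes of the family in both groups of 3; points are single libraries, short lines the group means, and the dotted line marks 1 TPM. Bgn, Dcn and Ogn stand clear of the other members, of which none exceeds 0.273 TPM in any library.

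Among the 11 other genes of the family, 2 passed the filter. Tsku, a secreted regulator of several signalling pathways, was at 17.2, 17.6 and 16.1 TPM without TGFB1 and at 26.6, 21.7 and 19.7 TPM with it. It was called higher (0.39 on the log2 scale, SE 0.114, adjusted p = 0.0417). That call was lost without control replicate 1, 2 or 3 or TGFB1 replicate 2 (adjusted p up to 0.129), with no filter (0.0911), with median-of-ratios scaling (0.0507), with quantile normalization (0.0567) and without the intensity trend (0.051). Chadl, a collagen-binding relative of chondroadherin, was at 2.54 ± 0.232 and 2.50 ± 0.935 TPM and was not called (log2 fold change -0.05, 95% interval -0.57 to 0.47, adjusted p = 0.878). It shares 17.5% of its 31-base words with other genes, chiefly L3mbtl2 on the other strand, so its level is uncertain.

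The remaining 9 relatives (Aspn, Ecm2, Kera, Omd, Epyc, Optc, Chad, Nyx and Podnl1) were under the filter, with no value above 1.14 TPM. In 3 of them the groups did not overlap, beside 12.5% of all genes above 0 but under the filter. Opticin, Optc, was at 0.294, 0.378 and 0.251 TPM without and at 1.14, 0.685 and 0.929 TPM with TGFB1. Nyctalopin, Nyx, went from 0.538, 0.828 and 0.538 TPM to 0.0895, 0.184 and 0.162 TPM. With no filter Optc was called higher and Nyx lower (limma adjusted p = 0.0268 and 0.0187). In that fit 6.68% of genes were called higher and 5.77% lower. Ecm2 was at 0.167 ± 0.0256 and 0.107 ± 0.00923 TPM and was not called (adjusted p = 0.194).

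Several of these genes sit side by side on the chromosomes, and in each such row at most 1 gene of the family passed the filter. Dcn, Lum, Kera and Epyc span 203 kb of chromosome 10, and only Dcn was tested. The highest value of Lum, Kera or Epyc in any library was 0.273 TPM. Ecm2, Aspn, Omd and Ogn span 120 kb of chromosome 13, where Ogn was the only 1 of these 4 tested and none of the other 3 exceeded 0.487 TPM. Optc, Prelp and Fmod span 151 kb of chromosome 1, and none was tested.

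Genes of other families next to the members were read in the same fit. Haus7, before Bgn, was at 19.2 ± 2.92 and 23.2 ± 2.67 TPM (0.26 on the log2 scale, adjusted p = 0.18), and Atp2b3, after it, was near 0 in both groups (0.0187 and 0.0264 TPM). Nol8, after Ogn, was called higher (log2 fold change 0.36, adjusted p = 0.0468), the opposite direction to Ogn. That call was lost in 9 of the 16 alternatives. Btg2, after Fmod, and Scp2, which overlaps the far end of Podn, were not called (log2 fold changes -0.13 and -0.16), and Slc1a7, before Podn, was near 0 (0.0949 and 0.171 TPM). Gm46240, before Dcn, had no row in the table.

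**Figure D3:**
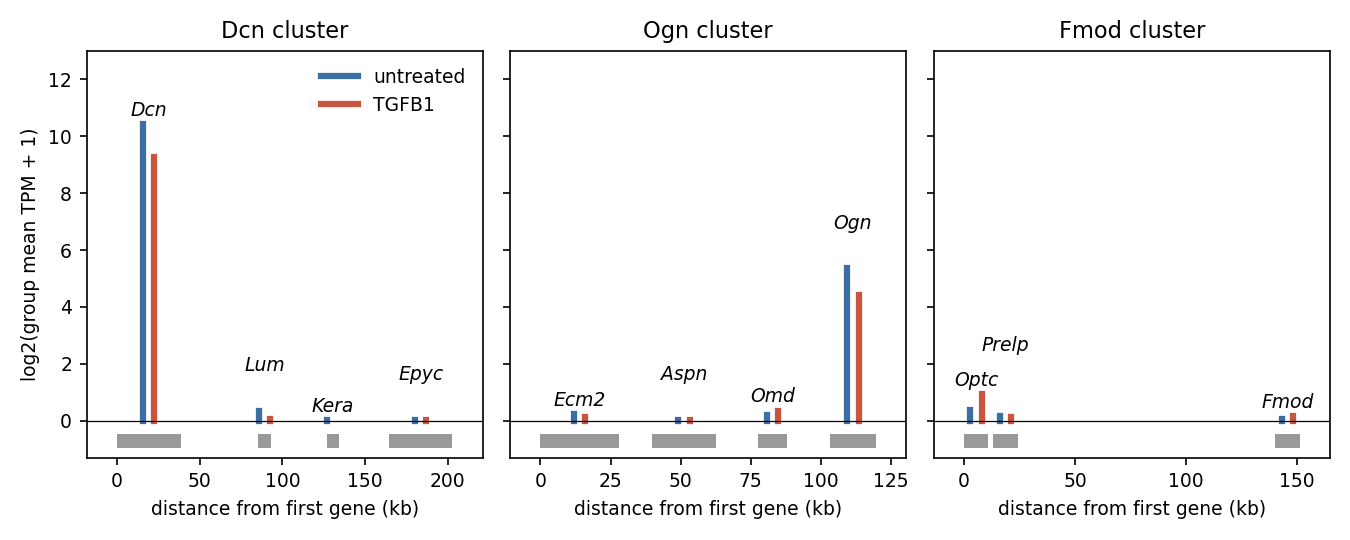
Group mean levels, as log2(mean TPM + 1), of neighbouring family genes, placed by distance in kb from the start of the first gene of each row; grey boxes are the gene bodies in GENCODE M21, blue lines the untreated and red lines the TGFB1 mean. Dcn and Ogn are the only tall lines in their rows, and the third row has none.

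The genes whose values moved most like each tested member were found by the root-mean-square difference of centred log2 values over the 6 libraries. For Bgn they were Plxdc2 (0.0218), the protocadherin gene Pcdhb5 (0.0417) and the TRAF-family adaptor gene Traf4 (0.0528). For Dcn they were Baiap2 (0.0514), Degs1 (0.09), an enzyme gene of ceramide synthesis, and Creg1 (0.111). For Ogn they were the sodium bicarbonate cotransporter gene Slc4a4 (0.0414), Sowahc (0.0497) and Nme3 (0.0526), each lowest in TGFB1 replicate 1 as Ogn was.

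Among 22 genes that build and modify the chondroitin and dermatan sulfate chains carried by decorin and biglycan, 16 were tested, of which 9 rose, 3 fell and 4 did not pass. Their median log2 fold change was 0.30, beside 0.02 over all tested genes. Of all tested genes 15.8% were called higher and 14.6% lower, the shares to set beside this list and each later one. Chsy1, a chondroitin polymerase gene, rose from 11.6 ± 1.03 to 24.6 ± 3.36 TPM (1.02, adjusted p = 0.00161), and its partner gene Chpf2 from 57.0 ± 2.12 to 88.5 ± 4.88 TPM (0.62, adjusted p = 0.00125). Csgalnact2, which starts chondroitin chains, fell from 36.9 ± 1.78 to 23.8 ± 2.14 TPM (-0.62, adjusted p = 0.00309). B4galt7, an enzyme gene of the linkage region, rose (0.63, adjusted p = 0.0168), a call lost without any of the 3 controls (up to 0.0593). Without control replicate 1 or 3, 5 genes rose, and without control replicate 3 or TGFB1 replicate 3, 1 fell.

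Of 11 genes for keratan sulfate chains and sulfate supply 5 were tested, of which 3 rose, 1 fell and 1 did not pass, with a median log2 fold change of 0.31. The galactosyltransferase genes B4galt1 and B4galt4 went in opposite directions, at 0.39 (adjusted p = 0.0114) and -0.73 (adjusted p = 0.0273). Slc26a2, a sulfate transporter gene, and Papss1, which makes the sulfate donor, were at 0.49 and 0.31 (adjusted p = 0.0217 and 0.0421). These calls were fragile: 1 gene rose without control replicate 1 or 2 or with no filter, none rose without control replicate 3, and none fell in any of those fits. Chst4 was at 0 in all libraries, and B3gnt7, Chst1, Chst2, Chst5 and Papss2 were under the filter.

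Within the fixed list used here, the other carriers of chondroitin or dermatan sulfate were nearly absent. Carriers outside that list were not counted. Of its 13 core protein genes, including the large proteoglycans aggrecan (Acan) and versican (Vcan), Dcn and Bgn alone passed the filter, with 1 lower and 1 higher. Vcan was at 0.199 and 0.226 TPM.

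BMP1 removes the propeptide of biglycan and the C-propeptide of fibrillar procollagens, and Pcolce encodes an enhancer of the collagen step. Of 8 genes of such processing 4 were tested, of which 1 rose, 2 fell and 1 did not pass (median log2 fold change -0.53). Bmp1 rose from 45.5 ± 4.02 to 127 ± 15.8 TPM (1.46, adjusted p = 0.000422). Pcolce fell from 759 ± 11.9 to 401 ± 12.5 TPM (-0.92, adjusted p = 0.000152) and Adamts3, a procollagen N-protease gene, from 3.87 ± 0.409 to 1.78 ± 0.284 TPM (-0.81, adjusted p = 0.00614). With a filter of 5 TPM, under which Adamts3 is not tested, 1 fell.

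Among 19 collagens and fibril-associated partners to which these proteoglycans bind or with which they share fibrils, 10 were tested, of which 7 rose, 1 fell and 2 did not pass (median log2 fold change 1.02). Col5a1 was at 1.96 and Thbs1 at 1.74, next to Col1a1, while Col6a1, a chain of the collagen VI to which decorin and biglycan bind, was at -2.65 and at -2.02 without TGFB1 replicate 1. Col1a2 was at 142 ± 15.4 and 145 ± 2.55 TPM and was not called (0.04, adjusted p = 0.744), unlike Col1a1. With no filter, with quantile normalization or after rescaling, 2 fell.

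Of 12 protease genes whose products can cut these core proteins 6 were tested, and 5 rose (median log2 fold change 1.22). Htra1 rose from 586 ± 12.9 to 1299 ± 185 TPM (1.14, adjusted p = 0.000733) and Mmp14 from 232 ± 18.7 to 578 ± 75.2 TPM (1.31, adjusted p = 0.000539). Adamts4 was at 2.85 and Mmp2 at 1.99. Adamts1 was not called (-0.06), and with no filter 1 of the 12 fell.

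Among 26 genes for receptors and growth factors reported to bind decorin, biglycan or their relatives, 20 were tested, of which 10 rose, 3 fell and 7 did not pass (median log2 fold change 0.29). The growth factor gene Igf1 was at 3.61 and Wisp1 (CCN4), which decorin and biglycan bind, went from 16.3 ± 2.64 to 120 ± 70.7 TPM (2.67, adjusted p = 0.00298). The toll-like receptor genes differed in direction: Tlr2 rose from 0.367 ± 0.0893 to 2.23 ± 0.977 TPM (1.20, adjusted p = 0.00995). Pdgfa was called higher (1.42, adjusted p = 0.0185), a call lost without any of the 3 controls and with no filter (up to 0.0658). Tlr4 fell from 29.3 ± 2.08 to 21.1 ± 2.87 TPM (-0.46, adjusted p = 0.0227), but missed the threshold (up to 0.0794) when control replicate 2 or 3, or the filter, was left out. Erbb4 and Bmp2 were at 0 in all libraries. Without control replicate 1 or 3, 5 of these genes rose, and 6 did without TGFB1 replicate 2 or 3 or with no filter. The number that fell was 1 without control replicate 1 and 0 without control replicate 2 or 3 or with no filter.

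**Figure D4:**
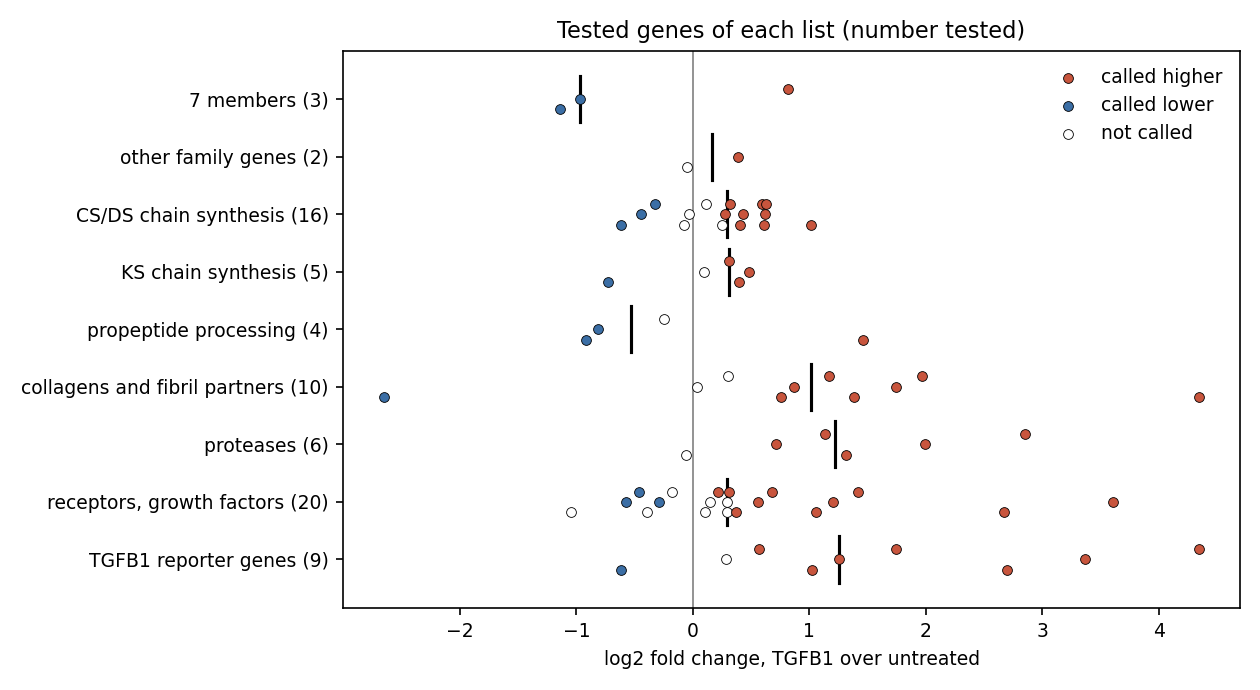
Log2 fold change (TGFB1 over untreated) of each tested gene in 9 lists; red points were called higher, blue points lower and open points not called, and the vertical bar is the median of the tested genes. CS/DS is chondroitin and dermatan sulfate and KS keratan sulfate; the 3 tested members lie on both sides of 0, with Bgn at 0.82, Ogn at -0.97 and Dcn at -1.14.

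Dcn and Ogn are also used as markers of fibroblasts, so markers of the cell types a culture from the ovary could hold were read beside them. The labelled cell type showed part of its markers: of 17 surface epithelium and mesothelium markers 12 passed the filter, among them Upk3b, Msln, Wt1 and Krt7, while Cdh1, Krt8, Krt19, Lhx9 and Aldh1a2 did not. The summed level of that list was 2301 to 2449 TPM without TGFB1 and 1239 to 1612 TPM with it, and 5 of its genes fell and 1 rose. The 14 stromal fibroblast markers summed to 876 to 955 and 731 to 846 TPM; 6 were tested and 1, Thy1, fell, while 1 rose without control replicate 1 or with no filter and 2 without TGFB1 replicate 1. Of that list Fbln1 was at 0 in all libraries, and Pdgfrb, Tcf21, Dpt, Pi16, Mfap4, Fap and Ly6c1 were under the filter. In bulk RNA, fewer cells of a type and less RNA per cell cannot be told apart.

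Theca markers (6) summed to 282 to 328 and 79.8 to 183 TPM, nearly all of it Star, the 1 of 2 tested that fell, and Lhcgr was at 0. The Star call was lost without any of the 3 controls and with no filter. Granulosa markers (6) summed to 33.8 to 37.9 and 30.9 to 34.1 TPM, with 1 of 2 tested higher and 1 lower and Fshr at 0. The higher call was lost without control replicate 1 or 3 or TGFB1 replicate 2 or 3, and the lower one without control replicate 2 or 3. Smooth muscle markers (6) summed to 1385 to 1770 and 1762 to 2312 TPM, mostly Acta2, with 2 of 4 tested higher (1 without control replicate 1 or 2, with no filter or with a filter of 5 TPM) and Myh11 near 0 (0.0031 and 0.012 TPM). Endothelial markers (6) summed to 1.14 to 1.28 and 1.87 to 2.38 TPM, with 1 tested and none called. Leukocyte markers (7) summed to 19.2 to 26.7 and 7.79 to 10.3 TPM, nearly all Cd68, which fell, with Ptprc near 0 (0.0739 and 0.0447 TPM). The part of these shifts in the levels of Bgn, Dcn and Ogn was not tested.

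**Figure D5:**
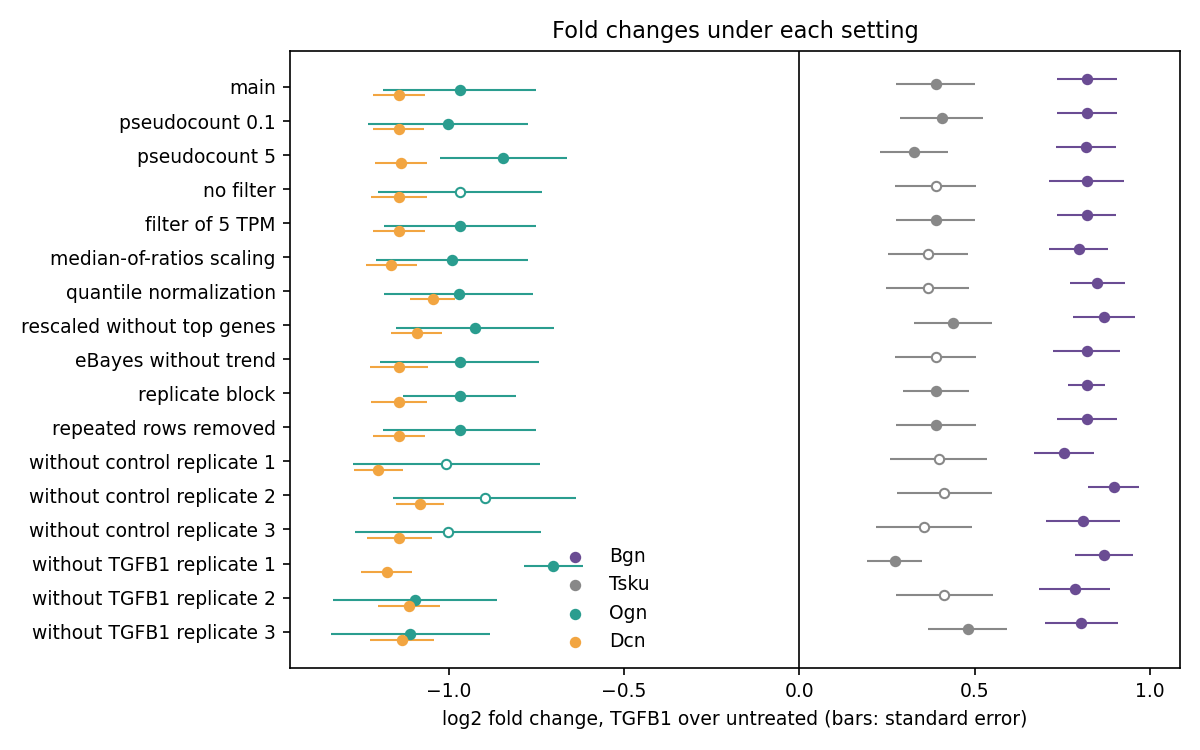
Log2 fold change (TGFB1 over untreated, bars show the standard error) of Bgn, Tsku, Ogn and Dcn as reported and under 16 other settings; filled points have an adjusted p under 0.05 and open points do not. Bgn and Dcn are filled in every row, while Ogn is open without any of the controls and with no filter.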

How the data were processed

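RNA abundance was compared between 3 untreated and 3 TGFB1-treated libraries. Per the labels' protocols, poly(A) RNA went into directional libraries. Kallisto 0.44.0, sleuth 0.30.0 and GRCm38 appear, with no role, in the submitters' processing notes, and the annotation and use of strand were not given in the sources used here. Deposited by the authors was a TPM-scale signal per gene and library, whose column totals run from 983434 to 1026702, so it is not plain TPM. Depth is unknown.

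Column names gave the group and number of each sample. Values were fitted as log2(TPM + 1) with limma 3.58.1 in R 4.3.3 (eBayes with trend, two-sided, Benjamini-Hochberg over the 12257 genes whose mean reached 1 TPM). Fold changes on this scale understate the change of low genes. Ratios within libraries were tested by exact permutation (scipy 1.17.1). The steps were tested on simulated data. The members, the 17 lists of genes and the naming rule were chosen with earlier results of these data known. The rule names all family genes, the up to 4 most changed called genes of every other list and the neighbours on either side of a member. It also names marker genes with no signal in any library and the 3 genes most like each tested member. Genes outside it were named after their values were seen, among them Ltbp2, Col1a2, Tlr4, Cenpp, Adamts1, Vcan, Acan, Myh11, Ptprc and others under the filter. Some genes that the rule covers, such as the called granulosa markers, are not given by name. The alternatives changed the pseudocount, filter, scaling, trend, block and libraries. Removing rows with repeated values was added after seeing the data. Promoter motifs were also chosen then. Shared sequence was counted as 31-base words of GENCODE M21 transcripts.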

Additional observations from a re-analysis of the deposited data

How the results depend on the processing

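Bgn was called higher and Dcn lower under all 16 alternatives, with log2 fold changes from 0.75 to 0.90 and from -1.20 to -1.05. The number of members called lower was 1 to 2 with each library left out, since Ogn lost its call without any of the 3 controls; with no filter it was 2, with Lum in place of Ogn. The fold change of Chadl, never called, ran from -0.20 to 0.19 with each library left out, the latter without TGFB1 replicate 1. The labels do not say whether the replicate numbers pair the libraries. Same-numbered deviations correlated at 0.198, 0.153 and -0.0384, and control replicate 2 correlated best with TGFB1 replicate 3 (0.184). With 3 libraries per group these correlations cannot settle whether the libraries are paired. With a replicate block 1906 genes were higher and 1924 lower, beside 1937 and 1788, with the same member calls (log2 fold change 0.82 for Bgn, -1.14 for Dcn and -0.97 for Ogn). Rescaling without mitochondrial and abundant genes made 62.7% of all calls higher, beside 52%. With control replicate 1, 2 or 3 left out 2311, 2471 and 2030 genes were called, beside 3725. Of 512 recounts of the other lists, 54 moved by over 1.5 times, mostly counts of 1 to 3. Low genes are measured less precisely, by an amount this table cannot give.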

Other observations

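Some genes of the lists above lay under the abundance filter, so they were tested only with no filter; those named here were picked after their values were seen. Col6a2, like Col6a1 a collagen VI chain gene, was at 1.82 ± 0.555 TPM without TGFB1 and at 0.162 ± 0.131 TPM with it, and it was among the collagens called lower by limma with no filter (adjusted p = 0.00996). The collagenase gene Mmp13 was at 1.27 ± 0.450 and 0.291 ± 0.221 TPM. Itga2, a subunit gene of a collagen receptor, was at 0.0827 ± 0.113 and 0.878 ± 0.944 TPM, with an SD above the mean in both groups. Xylt1, which starts the chain of a proteoglycan, was at 0.523 ± 0.101 and 1.13 ± 0.222 TPM (limma with no filter, adjusted p = 0.0404). In the fit with no filter 6.68% of all genes were called higher and 5.77% lower. No explanation was tested for these values.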
